A study of Mus musculus with 3 samples.

Results

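The basal epithelial cells of the vomeronasal organ (VNO) were examined in 3 single-cell RNA-seq libraries. The VNO is a chemosensory organ of the nasal septum, and its epithelium rests on a layer of keratin-rich basal cells. The cells were chosen by their transcripts: at least 3 unique molecular identifiers (UMIs, counted transcript molecules) of Krt5, at least 0.3% of UMIs from Krt5, Krt14 and Krt15 together, and at most 0.2% each from the macrophage genes C1qa, C1qb and C1qc and from the fibroblast genes Col1a1 and Col1a2. The choice was made among barcodes with 200 to 9000 genes and at most 10% mitochondrial UMIs. It found 730 basal cells in 15711 such kept barcodes of 27359 in all.

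The P10 control library came from OMPCre heterozygous mice at postnatal day 10, which carry the Cre recombinase in the Omp gene and no transgene. The P10 mutant and the 3-month mutant libraries came from OMPCreR26AP2e double heterozygous mice, which also carry a transgene in Rosa26 that makes AP-2ε, a transcription factor whose own gene is Tfap2e. Cre from Omp acts in olfactory and vomeronasal neurons once these make Omp, so the transgene was not designed to be switched on in basal cells. All animals were male on a mixed C57 BL/6J and 129P2/OlaHsd background, and the suspensions had been dissociated with papain and collagenase, frozen and thawed. Each group had 1 library, and the number of animals in it is not given in the sources used here. Groups were for that reason compared without p-values or standard errors, and no difference given here was checked in a replicate. Between the P10 libraries, genotype cannot be told apart from library, and age, library and the version of the counting software cannot be told apart between the mutants.

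Basal cells of stratified and pseudostratified epithelia lie on the basement membrane and are anchored to it by hemidesmosomes, in which integrins, plectins and collagen XVII bind laminins. They make the keratins Krt5, Krt14 and often Krt15, depend on the transcription factor p63 (Trp63), and divide to give both new basal cells and daughters that leave the layer. In a stratified epithelium those daughters switch to other keratins, such as Krt4 and Krt13, and to cornified envelope proteins. In airway and olfactory epithelium, basal cells also serve as a reserve from which other cell types are rebuilt after damage.

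Throughout, values listed without a group follow the order P10 control, P10 mutant, 3-month mutant. There were 308 basal cells among 4795 kept barcodes of the P10 control, 6.42% [5.75, 7.15]. The P10 mutant had 185 of 3956, 4.68% [4.04, 5.38]. The 3-month mutant had 237 of 6960, 3.41% [2.99, 3.86]. Values in brackets are exact 95% intervals and cover counting error only. The 3 intervals did not overlap, with the highest share in the P10 control, but the order of the mutants rests on the limits. At a mitochondrial limit of 5%, which the study used, it turned, with 1.73% [1.08, 2.6] in the P10 mutant and 2.38% [1.95, 2.86] at 3 months. At a keratin share of 0.15% they held 6.83% and 6.77%. The median depth of a basal cell was 15024, 12885 and 12608 UMIs, where the other kept barcodes had 9143, 10527 and 4656. The median mitochondrial share was 6.01%, 6.69% and 5.11%. Levels are pooled UMIs of a gene per 1000000 UMIs of the same cells (CPM), over 5099621, 2516252 and 3212350 UMIs of basal cells. No barcode sequence was shared by basal cells of different libraries, while 4 to 9 were shared by kept barcodes of any pair.

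The threshold on keratin cut through a gradient. Of the kept barcodes, 494, 349 and 699 had at least 3 Krt5 UMIs. The limit on the keratin share removed 177, 160 and 462 of these, which stayed among the other kept barcodes. The median basal cell had 0.561%, 0.499% and 0.412% of its UMIs in Krt5, Krt14 and Krt15. Just inside the limit, from 0.3% to 0.4%, lay 67, 56 and 109 basal cells. Just outside, from 0.2% to 0.3%, lay 59, 57 and 145 barcodes with the required Krt5 UMIs. The limit on collagen removed 7, 3 and 0 further barcodes, and that on C1q removed 2, 1 and 0.

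The markers held up the name, and those that the rule used are given as a description. Krt5, Krt14 and Krt15 form the intermediate filaments of basal cells. Krt5 stood at 1356, 1159 and 1166 CPM, and Krt14 at 3269, 3164 and 1863 CPM. Krt15 stood at 2670, 1293 and 1652 CPM, highest in the P10 control. Of the markers outside the rule, Trp63, the master regulator of basal identity, was at 210, 201 and 237 CPM, which were 22, 24.7 and 8.98 times the level of the other kept barcodes. It was seen in 79.5%, 80.5% and 86.9% of basal cells. Col17a1, the hemidesmosomal collagen, was at 336, 354 and 247 CPM, and 23.1, 24.7 and 9.17 times the other barcodes. Ly6d, a surface protein of stratified epithelia, was at 2667, 3206 and 2993 CPM. Sfn, a 14-3-3 protein of keratinocytes, was at 3066, 3864 and 2227 CPM, and Aqp3, a channel for water and glycerol, at 851, 618 and 692 CPM. All 8 markers were thus present in every library, and the excess over the other barcodes was smaller at 3 months for Trp63 and Col17a1, where these barcodes themselves held more Trp63 (26.4 CPM against 9.53 and 8.13).

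**Figure D1:**
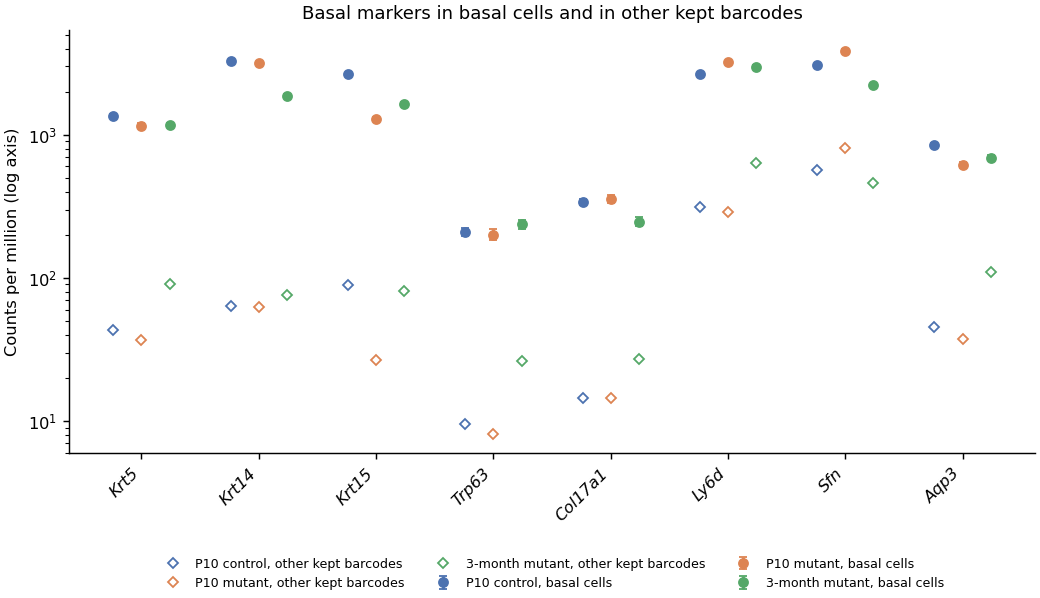
Level in CPM, on a log axis, of 8 basal markers in basal cells (filled points, with exact 95% counting intervals) and in all other kept barcodes (open diamonds) of the 3 libraries. Filled points lie above the diamonds for every marker in every library, and Krt15 is at 2670 CPM in the P10 control against 1293 CPM in the P10 mutant.

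Genes of other cell types were low but not absent. The summed level of the macrophage list was 96.1, 80.7 and 242.5 CPM in basal cells against 1662, 2037 and 4377 CPM in the other kept barcodes. The fibroblast list was at 226, 128 and 46.7 CPM against 11606, 12854 and 2380 CPM. The gland list was at 307, 76.7 and 2631 CPM, so the 3-month basal cells carried far more gland RNA, as did their neighbours with 25318 CPM against 10818 and 4953 CPM at P10. Of the remaining lists, neutrophil genes summed to 536, 465 and 524 CPM against 6439, 7824 and 4721 CPM, and vomeronasal neuron genes to 224, 274 and 199 CPM. The sustentacular list, whose Cbr2 basal cells also express, summed to 3570, 2995 and 3492 CPM. The endothelial, lymphocyte, erythroid, mast cell, glia, osteoblast and myoepithelial lists stayed between 0 and 58.8 CPM. Omp, the defining gene of mature sensory neurons, had 5, 0 and 4 UMIs in all basal cells together. No doublets were removed and no correction for free RNA was made.

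Beside the markers, the genes with the largest excess over other barcodes, by the lowest of the 3 libraries, were led by genes of epithelial signaling and defence. Wnt10a, a Wnt ligand, was at 41.8, 23.1 and 15.9 CPM, which were 59.7, 108 and 15.3 times the other barcodes. Dlk2, a relative of the Notch ligands, was at 102, 94.2 and 82.8 CPM, 28, 37.6 and 15.2 times the others. Defb1, a beta-defensin, was at 291, 371 and 278 CPM, 22.2, 34 and 10.5 times the others. Lamb3, a chain of the laminin that hemidesmosomes bind, was at 132, 126 and 153 CPM. Ngfr, the low-affinity neurotrophin receptor and a known basal cell marker of airway epithelium, was at 33.3, 31.8 and 61 CPM. Ereg, a ligand of the epidermal growth factor receptor (EGFR), was at 31, 42.9 and 60.4 CPM. All 6 genes stood above the other barcodes in all 3 libraries. They come from the same cells that the rule chose, and are a description.

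Basal cells were then clustered among themselves, which gave 7 sub-clusters. Sub-cluster 1 held 110 cells of the P10 control and 81 of the P10 mutant and was led by Col9a3, Vcan, Eln, Fbln2 and Scx, genes of extracellular matrix and, for Scx, of connective tissue. Sub-cluster 2 held 96 and 88 cells and was led by Nppc, Meg3, Tubb2b, Zdbf2 and Fscn1. Neither held a 3-month cell. Sub-cluster 3, with 22, 11 and 6 cells, was led by the mitotic genes Nusap1, Knl1, Pbk, Aspm and Ube2c. Sub-cluster 4 held 74, 1 and 4 cells, nearly all of them from the control, and was led by Chil1, Kcne3, Slc5a8, Chad and Cyp2a5. Of the 3-month cells, 71 lay in sub-cluster 5, led by Fxyd4, Cxcl5, Gpx2, Ceacam1 and Plaur. Another 106 lay in sub-cluster 6, led by Cd52, Srgn, Tyrobp, Cp and Slpi, of which Cd52, Srgn and Tyrobp are genes of white blood cells. The remaining 50 lay in sub-cluster 7, led by Bpifa1, Chil4, Fmo6, Sult1d1 and Cd36. The marker Ly6d was low in it, at 138 CPM against 3317 and 3862 CPM in the 3-month cells of sub-clusters 5 and 6. Trp63 was at 255 CPM in it, against 202 and 290 CPM. Clusters made mostly of 1 library may be that library and not a type, and these were made without a correction between libraries. Their sizes and leading genes are a description.

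The first comparison was between basal cells of the P10 mutant and the P10 control. A gene was compared when it had at least 50 UMIs in both libraries together, and was called by size alone, at 2-fold or more. Of 9381 genes, 62 were higher in the mutant (0.661%) and 300 were lower (3.2%), and the median log2 ratio was -0.05. Of the gene lists, the suprabasal, other keratin and detoxification lists held the most lower genes, and 86 genes in place of 300 were lower once 74 control cells of sub-cluster 4 were set aside. Of the hemidesmosome, Notch, EGFR and antigen presentation genes, 0 or 1 per list reached 2-fold.

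Tfap2e was checked first, since the transgene makes it. It had 10, 117 and 83 UMIs, which were 1.96, 46.5 and 25.8 CPM. Both mutant libraries were thus far above the control, and the P10 mutant was 23.7 times it [12.4, 50.7]. The other kept barcodes of the same libraries stood at 10.4, 167 and 53.5 CPM, a P10 ratio of 16, and barcodes with over 0.2% of UMIs from C1q (called C1q-high barcodes), which should not make the transgene, stood at 2.38, 16.3 and 11.6 CPM. After every cell was thinned to 2000 UMIs, 8.15% [4.63, 13.1] of basal cells of the P10 mutant had a Tfap2e UMI, against 3.08% [1.14, 6.58] of the 195 C1q-high barcodes deep enough, with median depths of 12885 and 8173 UMIs. In the 3-month mutant the shares were 1.69% and, of 529 C1q-high barcodes, 1.51%. Without thinning, Tfap2e was seen in 2.27%, 36.8% and 16.9% of basal cells, and in 10.4% and 4% of C1q-high barcodes of the mutants. Barcodes with at least 5 Omp UMIs and no Krt5 (called Omp barcodes) had thinned shares of 57.8% and 43.8%. The intervals of the thinned shares of basal cells and C1q-high barcodes overlapped in both mutant libraries. The pooled levels in basal cells, 46.5 CPM [38.5, 55.7] and 25.8 CPM [20.6, 32], were above 16.3 and 11.6 CPM in C1q-high barcodes. At 3 months the 83 UMIs lay in 40 of 237 basal cells, and the cell with the most held 21.7% of them. In the P10 mutant the 117 UMIs lay in 68 of 185 cells, and the cell with the most held 5.98%. The intervals of the levels cover counting error only and not this unevenness between cells. The part of free RNA in the Tfap2e UMIs of basal cells was not tested. Whether a Tfap2e transcript came from the transgene or from the native gene cannot be told apart in these counts.

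The group that differed most at P10 was that of suprabasal and cornification genes. Of 14 measured genes 9 were lower in the mutant and none was higher, and the median log2 ratio was -1.91, against 0.24 for the same genes in the other kept barcodes. Krt4, a keratin of the layers above the basal one, had 1345, 4 and 18 UMIs (264, 1.59 and 5.6 CPM). Its partner Krt13 had 308, 2 and 3 UMIs. Few control cells held them: the UMIs of Krt4 lay in 46 of 308 cells, and 1 cell held 40.8% of them. Krtdap, a secreted protein of differentiating keratinocytes, was at 218, 13.1 and 1.25 CPM. The P10 ratio was 0.0601 [0.0412, 0.0849], where the other barcodes gave 4.57. Sbsn, another keratinocyte secreted protein, was at 67.5, 14.7 and 7.47 CPM, and its genomic neighbour Dmkn at 65.1, 21.1 and 2.18 CPM. Sprr1a, a cornified envelope precursor also made under stress, was at 530, 253 and 210 CPM, and thus stayed clearly present in all libraries. Cnfn had 102, 0 and 0 UMIs, but 99% of them lay in 1 cell. The control was the highest library for each of these genes, while Tgm1, which cross-links the envelope, was at 15.9 CPM in the control and 17.5 CPM in the mutant.

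Keratins outside the basal set moved in part with this group. Of 14 measured, 6 were lower in the P10 mutant and none was higher, with a median log2 ratio of -0.72 against 0.13 in the other barcodes. Krt6a, a keratin of activated and wounded epithelium, was at 468, 27 and 21.5 CPM, a P10 ratio of 0.0578 [0.0447, 0.0735]. Krt6b, a near-identical paralog that can share reads with it, had 408, 0 and 0 UMIs, of which 82.6% lay in 1 cell. Krt23 was at 88.6, 23.4 and 121 CPM, lowest in the P10 mutant. Krt17, another keratin of activated basal cells, was at 2786, 2258 and 1811 CPM. The simple keratins Krt8 and Krt18, which columnar cells make, were at 583, 481 and 528 CPM and at 810, 950 and 1100 CPM. None of these last 3 keratins reached 2-fold between the P10 libraries.

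Counted by cell, at least 3 UMIs of Krt4 and Krt13 were found in 24 of 308 basal cells of the P10 control, 7.79% [5.06, 11.4]. Among the 185 cells of the P10 mutant 0 had them, which allows up to 1.97%, and 2 of 237 did at 3 months, 0.844% [0.102, 3.01]. For Krt6a and Krt6b the shares were 13.6% [10, 18], 4.32% [1.89, 8.34] and 2.95% [1.2, 5.99], and for Krtdap 7.14% [4.53, 10.6], 2.16% and 0%. The control stood above both mutant libraries in each of these counts, which were made without thinning. Their intervals did not overlap for Krt4 and Krt13 or for Krt6a and Krt6b. After thinning to 2000 UMIs, 7.54% [4.84, 11.1] of control basal cells had Krt4 or Krt13 (16.9% without thinning), against 2.04% [0.559, 5.14] of 196 C1q-high barcodes (median 2808 UMIs before thinning) and 0.704% of Omp barcodes (median 25511.5 UMIs). For Krt6a and Krt6b the thinned shares were 11.1%, 1.53% and 0%, and for Krtdap 7.21%, 0% and 0%. The thinned share of basal cells lay above both backgrounds for all 3 sets, though for Krt4 and Krt13 its interval overlapped that of the C1q-high barcodes. The pooled level of Krt4 and Krt13 was 324 CPM in basal cells and 483 CPM in the C1q-high barcodes, where they were seen in 2.21% of barcodes without thinning. For Krt6a and Krt6b the levels were 548 and 238 CPM, and for Krtdap 218 and 0.953 CPM. In basal cells of the P10 and 3-month mutants the thinned shares were 0.543% [0.0138, 2.99] and 0% for Krt4 and Krt13. For Krt6a and Krt6b they were 4.35% [1.9, 8.39] and 1.69% [0.462, 4.26]. After thinning, the P10 mutant interval for Krt6a and Krt6b thus overlapped the [7.84, 15.2] of the control, while that for Krt4 and Krt13 did not overlap the control.

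The 24 control cells with Krt4 and Krt13 differed in more than keratin. Of them, 14 also had at least 3 UMIs of Krt6a and Krt6b, 22 of Adh7, 23 of Cyp2f2 and 19 of Aldh3a1, which are enzymes that oxidise alcohols, foreign compounds and aldehydes. In these cells Cyp2f2 was at 4031 CPM and Adh7 at 777 CPM, against 521 and 156 CPM in the remaining 284 cells. Krt15 was at 9021 against 1951 CPM, while Krt5 was at 1163 against 1377 CPM and Trp63 at 116 against 220 CPM. They thus held more Krt15 and less Trp63, at median depths of 18964 and 14602.5 UMIs. The rule that chose the cells used Krt5 and Krt15, so the levels of these keratins are a description. Cells with Krtdap were mostly others: of 22 such cells 4 also had Krt4 or Krt13 at this level and 16 had Krt6a or Krt6b, and their Trp63 level was 268 CPM against 204 CPM in the rest.

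**Figure D2:**
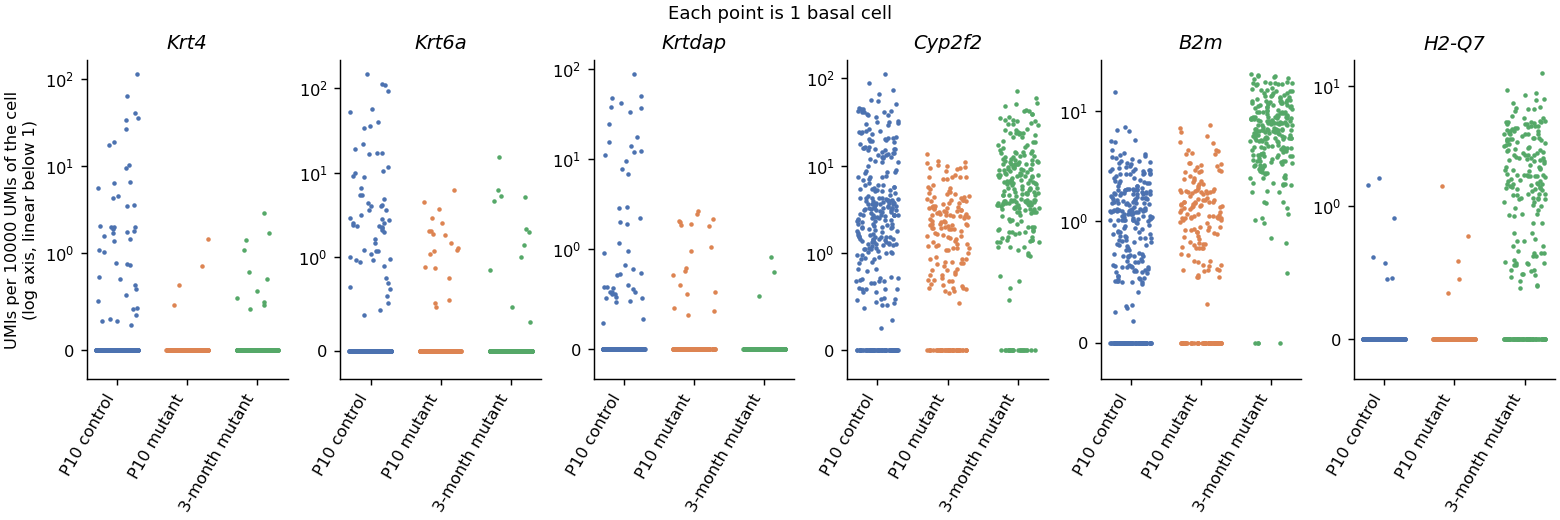
Each point is 1 basal cell, placed by its UMIs per 10000 UMIs of Krt4, Krt6a, Krtdap, Cyp2f2, B2m and H2-Q7 in the 3 libraries, on an axis that is linear below 1 and logarithmic above. High Krt4, Krt6a and Krtdap values occur in a few P10 control cells, while B2m is raised across the 3-month cells, of which 233 of 237 have a UMI.

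**Figure D3:**
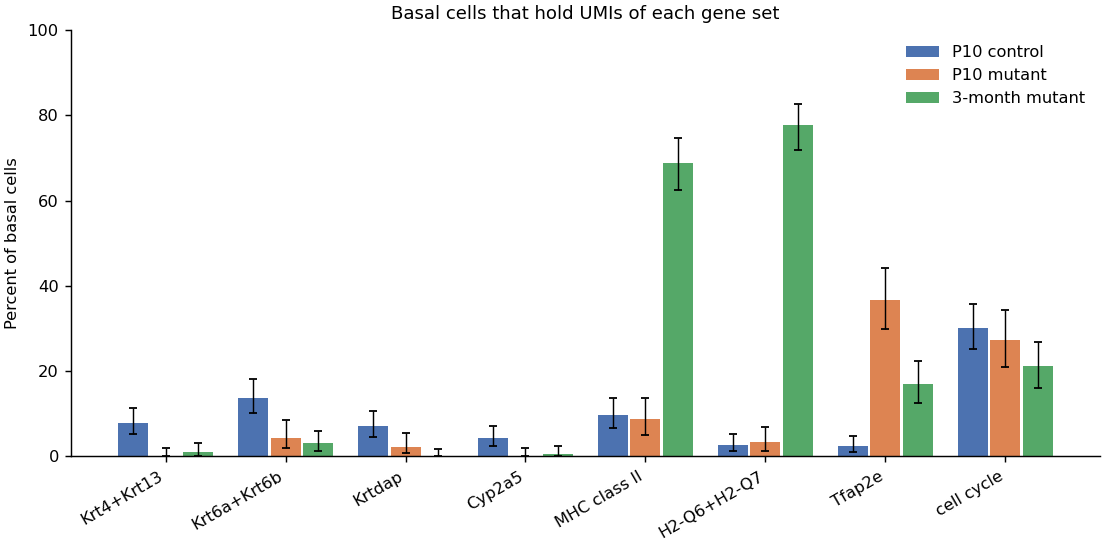
Percent of basal cells in each library that hold UMIs of a gene set (at least 3 UMIs of Krt4 and Krt13, Krt6a and Krt6b, Krtdap, Cyp2a5 or MHC class II genes, at least 1 of H2-Q6 and H2-Q7 or of Tfap2e) or that pass the cell cycle count, with exact 95% intervals as bars. Krt4 and Krt13 cells are 7.79% of the P10 control and 0% of the P10 mutant, and cells with H2-Q6 or H2-Q7 are 77.6% of the 3-month mutant.

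Enzymes that clear foreign compounds also differed at P10. Of 19 measured, 7 were lower in the mutant and none was higher, with a median log2 ratio of -0.76, against -0.19 in the other barcodes. Cyp2f2, a cytochrome P450 of airway epithelium, was at 878, 231 and 927 CPM, a P10 ratio of 0.262 [0.24, 0.286], where the other barcodes gave 0.537. Adh7, an alcohol dehydrogenase that also oxidises retinol, was at 219, 33.4 and 243 CPM, a ratio of 0.152 [0.121, 0.19]. Aldh3a1, an aldehyde dehydrogenase, was at 171, 33.4 and 117 CPM. Gsta3, a glutathione S-transferase whose paralogs can share its reads, was at 56.1, 4.77 and 82.2 CPM. The P10 mutant was the lowest library for all 4 genes. Cyp2a5 had 1325 UMIs in the P10 control, but over 50% of them lay in 2 cells, and it was at 260 CPM in basal cells against 60 CPM in the Omp barcodes and 53.8 CPM in the C1q-high barcodes. Its thinned share of cells was 6.23% [3.79, 9.56], with an interval that overlapped both the 5.63% [2.46, 10.8] of Omp barcodes and the 2.55% [0.833, 5.85] of C1q-high barcodes.

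The low values in the mutant depended on which control cells were included. With the 74 control cells and the 1 mutant cell of sub-cluster 4 set aside, 86 genes were lower in the P10 mutant, in place of 300. Of the 300, 136 could still be measured and 55 were still lower. Of the suprabasal list 8 genes in place of 14 could then be measured, of which 3 were lower and none was higher, with a median log2 ratio of 0.08. The enzyme list had a median of -0.15, with 0 of 16 lower. Adh7 was at 29.6 CPM in the control and 28.8 CPM in the mutant, and Cyp2f2 at 241 and 225 CPM. With cells that held 3 or more UMIs of Krt4, Krt13, Krt6a, Krt6b and Krtdap set aside instead, 109 genes were lower, 89 of them among the 300, and 6 of 17 enzymes were still lower. Adh7 was then at 142 and 35 CPM. Krt15, which the rule used, had a P10 ratio of 0.484 [0.466, 0.503] over all basal cells. It was at 1248 and 1270 CPM without sub-cluster 4. These subsets were chosen after the data had been seen, and sub-cluster 4 was drawn from the same values.

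By the fixed rule for naming, genes lower in the P10 mutant included several of secretory or surface epithelium. Pglyrp1, a peptidoglycan-binding antimicrobial protein, was at 222, 11.1 and 42.3 CPM, with a P10 ratio of 0.05 [0.0331, 0.0727] and of 0.505 in the other barcodes. Akr1c18, an aldo-keto reductase that inactivates progesterone, had 443, 0 and 24 UMIs. Of these, 422 lay in the 79 cells of sub-cluster 4, nearly all of them control cells, at 288 CPM against 4.81 CPM in the other basal cells. Tbx1, a T-box factor of pharyngeal development, had 110, 2 and 21 UMIs. Upk1b, a uroplakin of surface cells, was at 36.9, 2.38 and 21.2 CPM, and Fmo2, a flavin monooxygenase, at 60.8, 6.76 and 113 CPM. Ltf, the iron-binding protein lactoferrin, was at 378, 20.3 and 120 CPM, a P10 ratio of 0.0536 [0.0398, 0.0708]. The P10 mutant was the lowest of the 3 libraries for each of these genes.

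Few genes were higher in the P10 mutant. Meg3, an imprinted noncoding RNA, was at 71.6, 177 and 15.9 CPM, a P10 ratio of 2.48 [2.15, 2.85] against 1.22 in the other barcodes. Rian, from the same imprinted locus, was at 7.65, 28.2 and 0.934 CPM. AA465934 was at 11.6, 42.5 and 1.56 CPM, a P10 ratio of 3.68 where the other barcodes gave 2.31. In basal cells the P10 mutant was thus the highest library for all 3. The other kept barcodes held far more Meg3 and Rian, at 1792, 2187 and 524 CPM and at 244, 329 and 55.4 CPM. In the C1q-high barcodes Meg3 was at 191, 166 and 92.9 CPM and Rian at 24.8, 27.4 and 13 CPM. The part of free RNA in the Meg3 and Rian UMIs of basal cells was not tested. Dot1l, which methylates histone H3, was at 44.3, 101 and 41.7 CPM. Phlda1, a gene of the early response to growth factors, was at 726, 1416 and 652 CPM, a P10 ratio of 1.95 [1.86, 2.04], just under 2-fold, where the other barcodes gave 0.845. The neutrophil genes S100a8 and S100a9 were at 32.7, 167 and 19.6 CPM and at 26.5, 145 and 28.3 CPM, and the cytokine gene Il1b at 9.22, 55.6 and 20.2 CPM. In sub-clusters 1 and 2, which held 169 of the 185 mutant cells, S100a8 was at 28.9 and 26.1 CPM in the control and the mutant, so its difference lay in the few remaining cells.

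Of the structural genes of the basal layer, those of the hemidesmosome differed little between the P10 libraries and those of the desmosome were in most cases lower in the mutant, short of 2-fold. Of 13 hemidesmosome and laminin genes 1 was lower, with a median log2 ratio of 0.11. The lower gene was Lama3, a laminin chain, at 19.8, 8.74 and 20.2 CPM. Itga6 and Itgb4, the integrin pair of the hemidesmosome, were at 172, 175 and 213 CPM and at 211, 228 and 190 CPM. Dst, the plectin-related linker to keratin, was at 251, 283 and 260 CPM. Of 11 desmosome genes 2 were lower by 2-fold and 9 had a ratio below 1, with a median log2 ratio of -0.39 against 0.29 in the other barcodes. Dsg3, the desmoglein of basal layers, was among the 2, at 18.2, 2.38 and 4.05 CPM. Without sub-cluster 4 the desmosome median was 0.02 and 0 of 10 were lower. Of 12 adherens and tight junction genes none reached 2-fold. Among 21 transcription factors of basal and stem cells 3 were lower, namely Foxe1 with 98, 1 and 27 UMIs, Pitx1 at 64.7, 17.1 and 42.3 CPM, and Otx2 at 14.3, 3.18 and 10.6 CPM. Without sub-cluster 4, none of the 19 factors that could still be measured was lower. Sox2 was at 114, 111 and 152 CPM, Sox9 at 231, 286.5 and 295 CPM and Klf5 at 477, 519 and 510 CPM.

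Pathways that set whether a basal cell divides or differentiates showed few differences at P10. Of 12 Notch pathway genes none reached 2-fold, with a median log2 ratio of 0.03. Notch1, the receptor, was at 68.8, 89.4 and 50.4 CPM. Its ligand genes Jag2 and Dll1 were at 99.8, 105 and 110 CPM and at 37.1, 33.8 and 46.7 CPM, and Dll4 had 2, 1 and 0 UMIs. Hes1, a target and repressor, was at 448, 497 and 433 CPM, and Hey1 at 84.3, 72.7 and 73.8 CPM. Of 12 EGFR pathway genes none reached 2-fold either, with Egfr at 50, 52.5 and 79.1 CPM and its ligand gene Hbegf at 783, 1036 and 1054 CPM. In the Wnt, BMP and FGF list 2 of 18 were lower, the ligand gene Wnt7b with 52, 4 and 25 UMIs and the receptor gene Lgr6 at 29.4, 14.3 and 17.1 CPM. Igfbp5, which binds insulin-like growth factors, was at 64.9, 19.9 and 34.6 CPM and was the 1 lower gene of 16 in its list. Without sub-cluster 4, none of 17 genes measured in the Wnt, BMP and FGF list was lower, and none of 16 in the list of Igfbp5. None of the genes measured in the heat shock, glycolysis and hypoxia, interferon, matrix, early response or water and ion lists reached 2-fold at P10. In the S phase list 1 of 17 was lower, in the cytokine list 1 of 14 was higher and 1 lower, and in the defence list 3 of 18 were higher and 1 was lower, the genes named above among them. The background for these counts was the 3.2% of all genes that were lower.

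The second comparison was between basal cells of the 3-month and the P10 mutant. Of 8228 genes with at least 50 UMIs, 249 were higher at 3 months (3.03%) and 518 were lower (6.3%), with a median log2 ratio of -0.13. These shares are the background for the counts per list that follow. The split depended on scaling: with median-of-ratios size factors it was 314 higher and 349 lower. The lists with the most higher genes were antigen presentation and detoxification, and those with the most lower genes were the insulin-like growth factor and imprinted list, the G2/M list and the matrix list. No control of 3 months was analysed here.

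Of the lists of basal and epithelial function, antigen presentation had the largest share of higher genes. Class I molecules show peptides from inside the cell to T cells and consist of a heavy chain, such as H2-K1 or H2-D1, and the light chain B2m. Of 16 genes measured 12 were higher at 3 months and none was lower, with a median log2 ratio of 2.63, against 1.49 for these genes in the other kept barcodes. At P10, none of 12 differed by 2-fold between the control and the mutant. B2m had 578, 330 and 2376 UMIs, or 113, 131 and 740 CPM. It was 5.64 times higher at 3 months than in the P10 mutant [5.02, 6.35], and 2.98 times in the other barcodes. The shift was across cells: the median basal cell had 89.2, 94.7 and 668 CPM, and a UMI was seen in 222 of 308, 133 of 185 and 233 of 237 cells. The quartiles of the 3-month cells were 392 and 1019 CPM, both above the upper quartiles of 165 and 180 CPM in the P10 libraries.

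The class I heavy chains were higher too. H2-K1 was at 183, 151 and 1033 CPM, a ratio of 6.84 [6.15, 7.63], where the other barcodes gave 2.84. H2-D1 was at 295, 264 and 1137 CPM, a ratio of 4.31 [3.97, 4.69] against 2.57. H2-Q7, a nonclassical class I gene, had 8, 5 and 579 UMIs (1.57, 1.99 and 180 CPM), a ratio of 90.7 [38.6, 280] against 9.56 in the other barcodes. Its close paralog H2-Q6 had 1, 1 and 158 UMIs. In basal cells both were all but missing at P10 and present at 3 months. H2-T23, another nonclassical gene, was at 133, 156 and 238 CPM, short of 2-fold. Class I genes are similar in sequence and can share reads, so the values of single members are uncertain.

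H2-Q6 or H2-Q7 was seen in 2.6%, 3.24% and 77.6% [71.8, 82.8] of basal cells. After thinning to 2000 UMIs, the 3-month share was 35.9% [29.8, 42.3] in basal cells (median 12608 UMIs) and 4.69% [0.977, 13.1] in 64 Omp barcodes (median 27247 UMIs). In basal cells of the P10 libraries it was 0.328% and 0.543%. For H2-K1 the 3-month shares were 82.3% [76.8, 86.9] in basal cells and 46.9% [34.3, 59.8] in Omp barcodes. Both shares lay above those of the Omp barcodes and below those of the C1q-high barcodes, 55% [50.7, 59.3] and 96.4% [94.4, 97.8]. The pooled level of H2-Q6 and H2-Q7 at 3 months was 229 CPM in basal cells and 436 CPM in C1q-high barcodes. At P10 the C1q-high barcodes also held these genes, at 241 CPM in the control and 217 CPM in the mutant. For B2m the shares of 72.2% [66, 77.8] in basal cells and 64.1% [51.1, 75.7] in Omp barcodes overlapped. The pooled level of B2m was 740 CPM in basal cells, 552 CPM in Omp barcodes and 3124 CPM in C1q-high barcodes. The Omp barcodes of the P10 mutant stood at 152 CPM, so B2m was higher at 3 months in them as well.

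Of the machinery behind class I molecules, the immunoproteasome subunits, which cut peptides for presentation, were higher. Psmb8 was at 36.5, 28.6 and 219 CPM, a ratio of 7.65 [5.99, 9.89]. Psmb9 stood at 15.9, 14.7 and 72.8 CPM, with a ratio of 4.95 [3.49, 7.21]. The other barcodes gave 2.77 and 3.11. The peptide transporter gene Tap1 was at 30.6, 24.2 and 33.9 CPM, and Tapbp, which loads the peptide, at 90.6, 85.8 and 82.2 CPM, so loading and transport genes did not reach 2-fold. Nlrc5, the activator of class I genes, had 1, 1 and 11 UMIs, too few to compare.

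Class II genes, which professional presenting cells use, were higher as well. Cd74, the invariant chain, was at 32.2, 33 and 366 CPM, a ratio of 11.1 [8.89, 14.1] against 2.31 in the other barcodes. H2-Aa was at 5.88, 5.17 and 86.5 CPM, and H2-Ab1 at 24.7, 13.1 and 167 CPM. After thinning, however, 58.2% [51.7, 64.6] of the 3-month basal cells had a class II UMI, and 59.4% [46.4, 71.5] of the Omp barcodes did. Without thinning the shares were 91.1% and 92.2%. The pooled class II level was 720 CPM in basal cells and 4479 CPM in the Omp barcodes. Neither the share nor the level was above that of the Omp barcodes at 3 months. In the P10 mutant the thinned shares were 9.78% [5.9, 15] of basal cells and 34.4% [22.9, 47.3] of Omp barcodes. The part of free RNA in the class II UMIs of basal cells was not tested. The macrophage list was also higher in 3-month basal cells, with 242.5 CPM against 80.7 CPM in the P10 mutant. In the 112 cells at P10 and 100 at 3 months of the mutants without any macrophage UMI, 12 of 16 genes were still higher, with a median log2 ratio of 2.63. In those cells B2m was at 132 and 789 CPM, H2-K1 at 139 and 1033 CPM and Cd74 at 37.8 and 370 CPM. Without sub-clusters 4 and 7 the count was again 12 of 16. Both subsets were chosen with the values in view.

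**Figure D4:**
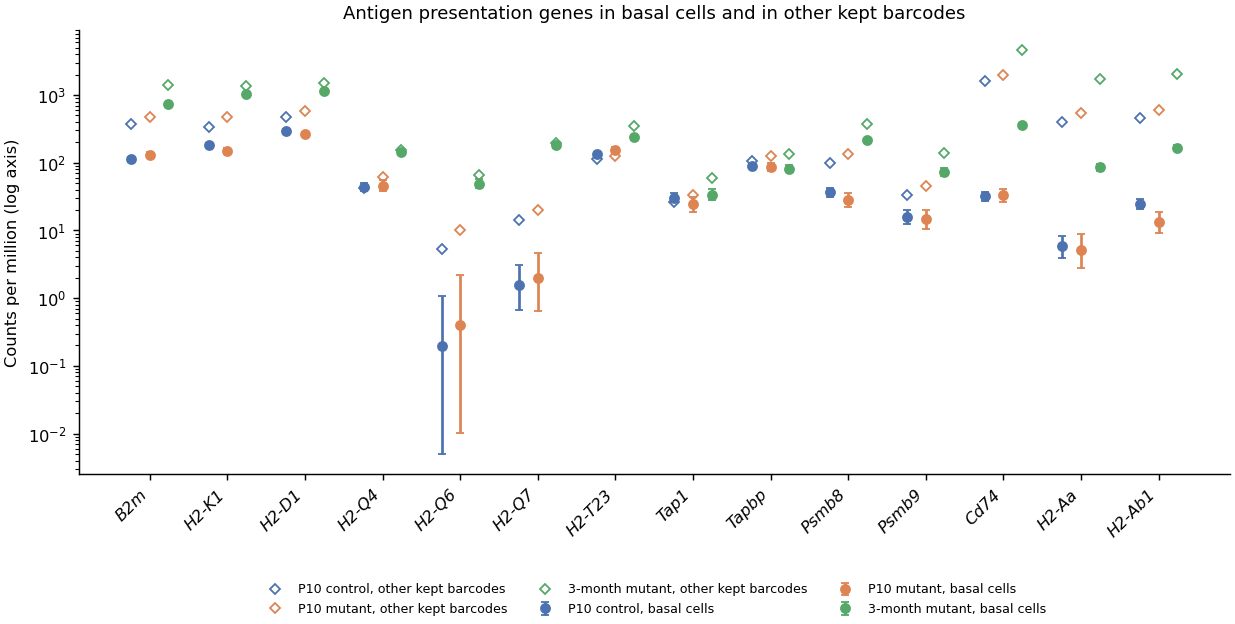
Level in CPM, on a log axis, of 14 antigen presentation genes in basal cells (filled points, with exact 95% counting intervals) and in all other kept barcodes (open diamonds) of the 3 libraries. The 3-month basal cells lie above both P10 libraries for B2m (740 against 113 and 131 CPM), H2-K1, H2-D1, Psmb8 and Cd74, while Tapbp is at 90.6, 85.8 and 82.2 CPM.

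Since class I genes moved together, promoters with a match are shown for the light chain gene B2m, the classical heavy chains H2-K1 (the first of 2 entries) and H2-D1, and H2-Q7. The 250 bases before the transcription start, on GRCm38, were searched on both strands for a pair of interferon-response motifs, GAA and GAAAC parted by any 2 bases, and GAAA and GAAA parted by any 2 bases. The motifs share letters and can overlap. The first was found in 476 of 32851 RefSeq promoters (1.45%), the second in 978 (2.98%) and either in 1407 (4.28%). Of 13 antigen presentation genes with an entry 7 had a match: the first motif in H2-K1, H2-D1, H2-Q4, H2-Q6 and H2-Q7, and the second in B2m and H2-T23. Capitals mark the match, which is on the other strand in H2-K1, H2-D1 and H2-Q7. The windows are chr2:122147437-122147686 (plus strand) for B2m, chr17:34000348-34000597 (minus strand) for H2-K1, chr17:35262844-35263093 (plus strand) for H2-D1 and chr17:35438905-35439154 (plus strand) for H2-Q7.
B2m: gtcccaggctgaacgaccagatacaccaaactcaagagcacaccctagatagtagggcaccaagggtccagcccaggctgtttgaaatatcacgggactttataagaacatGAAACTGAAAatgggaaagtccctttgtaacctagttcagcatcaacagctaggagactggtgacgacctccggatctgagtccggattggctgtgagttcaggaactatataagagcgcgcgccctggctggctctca
H2-K1: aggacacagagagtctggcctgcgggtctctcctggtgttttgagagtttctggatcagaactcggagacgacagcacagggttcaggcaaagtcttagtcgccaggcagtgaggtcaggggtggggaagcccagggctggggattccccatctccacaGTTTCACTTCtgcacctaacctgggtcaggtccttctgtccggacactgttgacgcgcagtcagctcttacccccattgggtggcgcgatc
H2-D1: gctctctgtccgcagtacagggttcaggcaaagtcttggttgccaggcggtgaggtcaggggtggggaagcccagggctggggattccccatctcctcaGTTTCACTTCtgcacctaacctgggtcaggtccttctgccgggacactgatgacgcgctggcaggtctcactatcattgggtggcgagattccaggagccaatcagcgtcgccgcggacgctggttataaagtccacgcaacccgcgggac
H2-Q7: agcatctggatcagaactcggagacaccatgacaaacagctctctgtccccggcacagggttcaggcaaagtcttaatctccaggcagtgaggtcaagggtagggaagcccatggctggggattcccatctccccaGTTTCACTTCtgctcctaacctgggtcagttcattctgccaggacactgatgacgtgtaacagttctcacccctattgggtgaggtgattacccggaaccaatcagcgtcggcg

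In H2-K1, H2-D1 and H2-Q7 the matched letters were the same, 82, 142 and 105 bases before the start, and in B2m the match lay 130 bases before it. H2-T23 also held a match but was 1.52 times higher. No match was found in Psmb8, Psmb9, Tap1, Tapbp, H2-Aa or H2-Eb1 in this window. A match is a description of the letters and not of binding.

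The interferon list bore the motifs in 8 of 15 promoters, but 2 of its 16 measured genes were higher at 3 months, with a median log2 ratio of 0.15. Ifi27l2a, an interferon-induced gene, was among them, at 199, 306 and 1285 CPM. Isg15, a ubiquitin-like protein, was at 163, 184 and 132 CPM. Ifit1, which binds viral RNA, was at 50, 65.6 and 73.2 CPM, and Irf7 and Irf1, transcription factors of the response, were at 24.1, 21.1 and 21.2 CPM and at 262, 242 and 264 CPM. The interferon list as a whole was thus far from the antigen presentation list.

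Detoxification genes were higher at 3 months than in the P10 mutant in 11 of 18 cases, with none lower and a median log2 ratio of 1.38 (0.78 in the other barcodes). Gpx2, a glutathione peroxidase of epithelia, was at 53.7, 29 and 243 CPM, a ratio of 8.36 [6.57, 10.8]. Gstm1, a glutathione S-transferase, was at 237, 136 and 457 CPM, and Prdx6, a peroxiredoxin, at 1230, 724 and 1874 CPM. For these 3 genes the 3-month mutant was the highest library. Adh7, Cyp2f2 and Aldh3a1 were 7.26, 4.02 and 3.52 times higher than in the P10 mutant, but at levels near those of the P10 control given above. Without sub-clusters 4 and 7, set aside together, 8 of 17 enzymes were higher, with a median of 0.73.

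Of 20 defence genes 6 were higher and 2 were lower. Wfdc18, a secreted protein of the whey acidic protein family, was at 287, 168 and 1694 CPM, a ratio of 10.1 [9.12, 11.1] against 4.15 in the other barcodes. Lcn2, which sequesters bacterial siderophores, was at 91.6, 124 and 353 CPM. Reg3g, an antibacterial lectin, was at a pooled 2036, 1607 and 2308 CPM, but its UMIs were uneven between cells. The median basal cell had 116, 93.7 and 801 CPM, and a UMI was seen in 58.8%, 56.2% and 76.8% of cells. The cell with the most held 13.3%, 11.1% and 5.33% of the Reg3g UMIs of its library's basal cells. Cxcl5, a neutrophil chemoattractant, was at 13.9, 24.2 and 328 CPM, a ratio of 13.5 [10.5, 17.8], where the other barcodes gave 1.88. It was seen in 33.3% of the 3-month cells and was among the leading genes of sub-cluster 5. Of 13 cytokine genes 2 were lower, Il1b and Ccl20, a chemokine at 68, 73.9 and 27.7 CPM. Over all genes 6.3% were lower and 3.03% were higher.

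Several of the largest differences were in genes of gland and plasma cells, and they were present in other barcodes too. Bpifa1, a secreted airway protein, had 118, 0 and 3160 UMIs in basal cells, and stood at 802, 0.68 and 3570 CPM in the other barcodes. Obp2a, an odorant-binding protein whose paralog Obp2b can share its reads, was at 148, 40.9 and 1114 CPM, a ratio of 27.2 [22.4, 33.4]. The other barcodes gave 6.63. The immunoglobulin genes Igkc and Igha had 8, 5 and 806 UMIs and 0, 0 and 272 UMIs. Thinned shares at 3 months were 40.9% in basal cells, 34.4% in Omp barcodes and 50.7% in C1q-high barcodes for Igkc. For Bpifa1 they were 13.9%, 9.38% and 14.9%, and for Obp2a 78.1% [72.2, 83.2], 57.8% [44.8, 70.1] and 88.8% [85.8, 91.4]. None of the 3 shares of basal cells was above that of the C1q-high barcodes, while that of Obp2a lay above that of the Omp barcodes. The UMIs of Bpifa1 were uneven: 3039 of the 3160 lay in the 50 cells of sub-cluster 7, which it led, at 6007 CPM against 47 and 42.5 CPM in sub-clusters 5 and 6. The part of free RNA in these values was not tested. Gm42418, which overlaps ribosomal RNA sequence, was at 1325, 1584 and 31109 CPM, a ratio of 19.6 against 23.3 in the other barcodes. Lars2, the mitochondrial leucyl-tRNA synthetase, was at 110, 107 and 1676 CPM, a ratio of 15.6 against 18.6. Both differed as much in the other barcodes.

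The list of growth genes, many of them fetal or imprinted, held the most lower genes at 3 months. Of 16 measured genes in the insulin-like growth factor and imprinted list, 9 were lower and none was higher, with a median log2 ratio of -1.27 (-0.68 in the other barcodes). Igf2, the fetal growth factor, was at 15.5, 19.1 and 2.18 CPM, a ratio of 0.114 [0.0436, 0.254]. H19, its imprinted noncoding neighbour, stood at 19, 32.2 and 4.67 CPM. Peg3, an imprinted zinc finger gene, was at 27.6, 25.8 and 2.49 CPM, a ratio of 0.0964 [0.0399, 0.201]. Cdkn1c, an imprinted inhibitor of the cell cycle, was at 84.9, 130 and 40.8 CPM. Igf2bp2, Igf2bp3 and Hmga2, which bind RNA or chromatin and are high in fetal cells, were at 38.8, 62 and 19 CPM, at 18.4, 21.5 and 5.29 CPM and at 14.3, 18.3 and 6.54 CPM. The 3-month library was the lowest for all 7 genes. Igf1r, the receptor, was at 141, 164 and 111 CPM and did not reach 2-fold. Outside the list, Meg3 had a ratio of 0.0896 [0.0657, 0.12] against 0.24 in the other barcodes, and Sox11, a transcription factor of immature cells, was at 57.1, 73.1 and 5.6 CPM.

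Matrix genes were lower in 6 of 14 cases, with a median log2 ratio of -0.78 and -0.73 in the other barcodes. Sparc, a calcium-binding matrix protein, was at 177, 192 and 26.5 CPM, a ratio of 0.138 [0.108, 0.174]. Col4a1 and Lamb1, chains of basement membrane collagen and laminin, were at 20.6, 24.2 and 7.47 CPM and at 15.3, 17.9 and 3.74 CPM. Fbln2, an elastic fibre and basement membrane protein, was at 55.1, 46.1 and 3.74 CPM, a ratio of 0.081 [0.0407, 0.147], while the other barcodes gave 0.723. Eln, elastin, was at 53.1, 48.5 and 5.6 CPM. The P10 libraries were alike and the 3-month library low for each. Fibroblast RNA moved the same way in basal cells, with 226, 128 and 46.7 CPM for the fibroblast list, and its part in these values was not tested.

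Among transcription factors of basal and stem cells, 3 of 19 were lower and 1 was higher at 3 months. Id3 and Id2, inhibitors of differentiation that respond to BMP signals, were at 514, 495 and 111 CPM and at 134, 168 and 58.2 CPM. The ratio of Id3 was 0.223 [0.198, 0.252], where the other barcodes gave 0.953. Id1 was at 460, 340 and 183 CPM, a ratio of 0.54 [0.485, 0.6], just short of 2-fold. Ovol1, a repressor in differentiating epithelium, was at 57.1, 61.2 and 16.2 CPM. In the Wnt, BMP and FGF list 4 of 16 were lower, including Wnt6 at 51.8, 48.1 and 19.6 CPM and Fst, which binds activin, at 84.1, 136 and 53.5 CPM. In the EGFR list Areg, a ligand gene, was at 40.8, 62.4 and 19 CPM and was the 1 lower gene of 10. In the Notch list 1 of 10 was lower, Rfng, which modifies the receptor with sugar, at 18.4, 27.8 and 11.8 CPM. The factors of basal identity, by contrast, were near equal, with Trp63 at a ratio of 1.18 [1.05, 1.33], Sox9 at 1.03 [0.935, 1.14] and Klf5 at 0.983 [0.914, 1.06]. Over all genes 6.3% were lower and 3.03% were higher, so the EGFR and Notch counts of 1 of 10 were near the background.

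Adhesion genes differed in single members. Of 11 adherens and tight junction genes 3 were lower at 3 months: Cldn4, a claudin, at 363, 375 and 118 CPM, with a ratio of 0.314 [0.278, 0.354], the claudin gene Cldn3 at 54.3, 30.6 and 9.96 CPM, and Ocln, occludin, at 20.6, 26.6 and 6.23 CPM. Col7a1, which forms the fibrils below the basement membrane, was at 73.7, 102 and 45.8 CPM, a ratio of 0.448 [0.363, 0.551]. Lama3 was 2.31 times higher [1.41, 3.94]. Of 17 glycolysis and hypoxia genes 3 were lower, among them the glucose transporter gene Slc2a1 at 126, 172 and 48.3 CPM. Both Hspa1a and Hspa1b, near-identical heat shock genes, were lower, at 760, 1053 and 293 CPM and at 715, 1051 and 246 CPM. Over all genes 6.3% were lower and 3.03% were higher.

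Division was compared last. With cells thinned to 2000 UMIs, at least 2 UMIs of S or G2/M phase genes were found in 92 of 305 basal cells of the P10 control, 30.2% [25.1, 35.7]. In the P10 mutant it was 50 of 184, 27.2% [20.9, 34.2], and in the 3-month mutant 50 of 237, 21.1% [16.1, 26.8]. The 3-month share was the lowest, but in this draw its interval overlapped those of both P10 libraries. Over 20 other draws the shares ran from 28.2% to 34.1%, from 25.5% to 34.2% and from 14.3% to 21.9%. Without thinning they were 90.6%, 96.2% and 85.2%. With at least 3 UMIs asked of the thinned cells, the 3-month interval [5.57, 13.2] did not overlap that of the control [13.6, 22.5]. With cells thinned to 1000 UMIs, the 3-month interval [6.6, 14.7] overlapped that of the control [12.9, 21.6]. Cells with at least 10 UMIs of G2/M genes, a count set after the data had been seen, were 18 (5.84%), 11 (5.95%) and 8 (3.38%). Of 13 G2/M genes measured, 7 were lower at 3 months than in the P10 mutant, with a median log2 ratio of -1.2, and the other barcodes gave -1.76. Top2a, which untangles DNA in mitosis, was at 46.3, 41.3 and 23 CPM. Of 16 S phase genes 1 was lower, with a median of -0.07 against -1.2 in the other barcodes, and Pcna, the replication clamp, was at 91.4, 103 and 74.4 CPM. At P10, Mki67, a marker of cycling cells, was at 41.6 and 17.1 CPM, and was the 1 lower gene of 20 in the G2/M list.

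**Figure D5:**
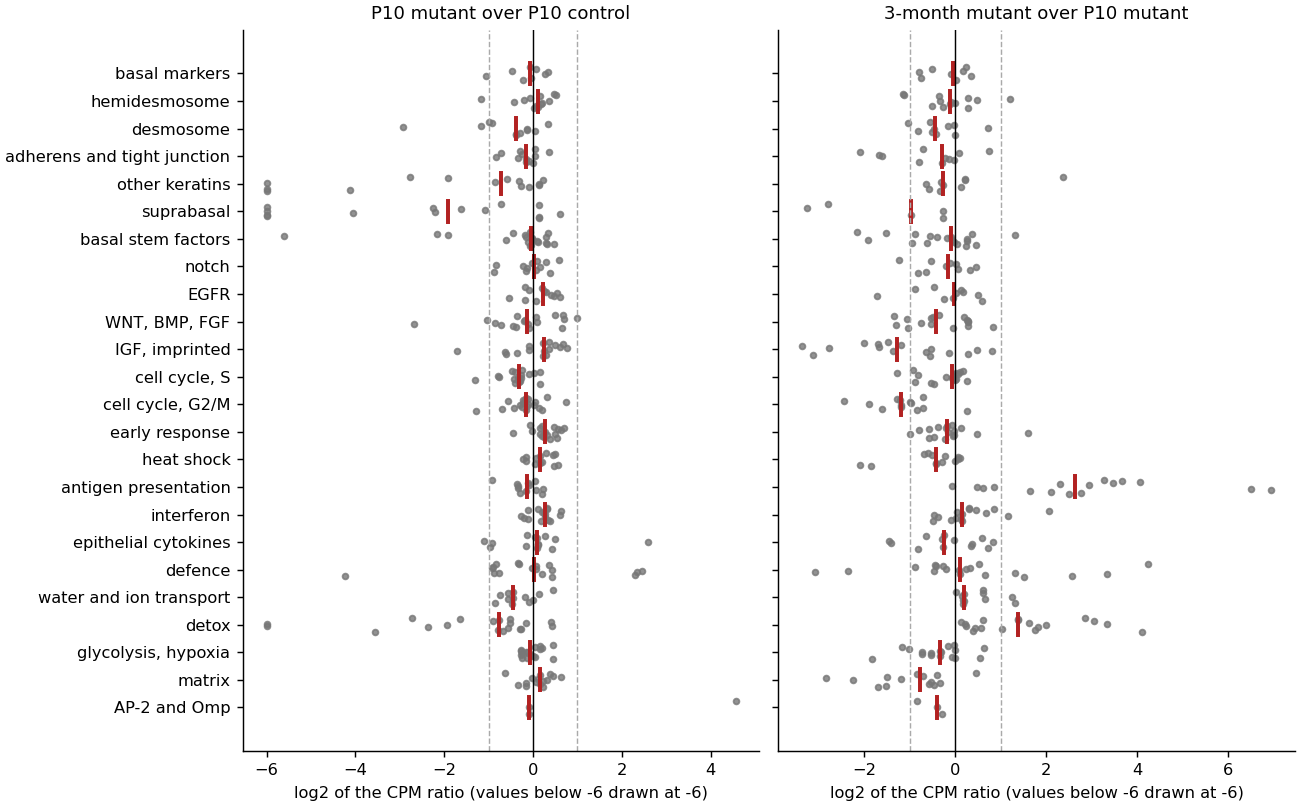
Log2 ratio of CPM per gene in each gene list in basal cells, for P10 mutant over control and for 3-month over P10 mutant. Red bars are list medians, dashed lines mark 2-fold, and values below -6 are drawn at -6. The suprabasal list has the lowest P10 median (-1.91) and the antigen presentation list the highest 3-month median (2.63).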

How the data were processed

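Single-cell RNA-seq with 10x Genomics Chromium 3′ v3.1 chemistry was run on 3 VNO suspensions, 1 per group, grouped from the sample labels. Per the file headers, the authors made raw UMI counts per gene and barcode on mouse mm10 with Cell Ranger, version 4.0.0 at P10 and 6.0.1 at 3 months, where the labels name 4.0.0 for all. The libraries held 83870584, 80760046 and 70074800 UMIs. The labels also name Seurat 3.2.3 and bcl2fastq, and the study's filter was 5% mitochondrial UMIs. Of 32285 features 32158 were found in GENCODE M21 (GRCm38), and the first entry of each of 40 repeated symbols was used. Unused columns of per-sample values numbered 0.

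Counts were summed over basal cells of a library and divided by their total UMIs (CPM). Levels have exact Poisson intervals, ratios conditional exact binomial intervals and shares Clopper-Pearson intervals, all at 95%. With 1 library per group no test was run, and genes were called at 2-fold among those with at least 50 UMIs in both libraries. The upper limit set for a gene with no UMI was 3 counts. The cell cycle share and the shares set beside C1q-high or Omp barcodes were taken after thinning each cell to 2000 UMIs, which left out 3, 1 and 0 basal cells. The other shares of cells with a gene set, which include the counts of at least 3 UMIs, were not thinned. Sub-clusters came from Leiden clustering at resolution 0.5. The gene steps were tested on simulated data.

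The text names genes of 24 lists of basal and epithelial function and 13 lists of other cell types. It also names, per comparison and direction, genes among the 15 whose ratio interval lay farthest from 1, if seen in at least 10% of cells of the higher library with at most 25% of UMIs in 1 cell, leaving out mitochondrial, ribosomal protein, Xist and Y-linked genes. Genes high against other barcodes came from the 20 with the largest lowest ratio, and sub-clusters are given by their 5 leading genes. The values of 1 listed gene are not reported here. The members and lists were chosen with earlier results of these data known. Promoter sequences came from RefSeq on GRCm38. Python 3.11.15 was used with numpy 2.4.6, scipy 1.17.1, pandas 2.3.3, scanpy 1.11.5, leidenalg 0.10.2, igraph 0.11.9, scikit-learn 1.9.0 and matplotlib 3.10.9. Alternatives tried were other mitochondrial, keratin, Krt5, depth, doublet and gene limits, other scalings, and the mean over cells.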

Additional observations from a re-analysis of the deposited data

How the results depend on the processing

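Leaving out a library was not run, as each group had 1. No paired analysis was possible because each group has 1 library. The thresholds of the rule, a minimum depth and the removal of cells with genes of other types were tried one at a time, while a correction for free RNA was not run.

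The share of basal cells moved with the rule. In the order P10 control, P10 mutant, 3-month mutant it was 4.89%, 1.73% and 2.38% at a mitochondrial limit of 5%, which left 77, 22 and 108 cells. It was 4.94% and 3.58% in the P10 libraries at 20%, then 3.02%, 1.67% and 0.532% at a keratin share of 0.6%, and 8.22%, 6.83% and 6.77% at 0.15%. With at least 2000 UMIs it was 8.40%, 5.49% and 5.01%. Without cells that held genes of other types it was 5.03% in the control and 2.46% at 3 months.

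Counts of called genes moved with the minimum of UMIs and the choice of cells. At P10, 205 genes were higher and 605 lower with at least 20 UMIs, and 12 and 74 with at least 200. Between the mutants these counts were 481 and 920, and 85 and 139. At a keratin share of 0.6%, 108 genes were higher at P10, and 103 were higher and 285 lower between the mutants. At the mitochondrial limit of 5%, 266 were lower at 3 months, and 184 were lower at P10 without cells that held genes of other types. Of the alternatives chosen after seeing the data, sub-clusters 1 and 2 gave 37 higher and 49 lower at P10, cells outside sub-clusters 4 and 7 gave 86 lower, and cells with fewer than 3 suprabasal UMIs 109 lower. Cells without a macrophage UMI gave 147 higher at 3 months. Between the mutants, a total without mitochondrial, ribosomal, Malat1 and Gm42418 UMIs gave 291 higher and 389 lower.

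The antigen presentation median was 3.02 at a keratin share of 0.6%. The suprabasal median at P10 was -2.76 at the mitochondrial limit of 5%, -2.21 with at least 6 Krt5 UMIs, -2.90 without cells that held genes of other types, -0.95 without the deepest 5% of cells, -1.45 as a mean over cells, -2.20 at a minimum of 20 or 200 UMIs and -3.27 without macrophage UMIs. It reversed to 0.074 in sub-clusters 1 and 2, 0.083 without sub-clusters 4 and 7 and 0.38 in cells with fewer than 3 suprabasal UMIs. The cell cycle share was 18.2% and 15.7% in the mutants at the 5% limit, 17.7%, 13.0% and 8.86% with at least 3 UMIs, and 16.9%, 12.4% and 10.1% when thinned to 1000 UMIs. Over 20 draws its extremes were 34.2% in the P10 mutant and 14.3% at 3 months, and by at least 10 G2/M UMIs it was 5.84%, 5.95% and 3.38%.

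Genes at P10 that reversed (log2 ratio) were Ces1d (0.059) and Ttc9 (-1.20) at the 5% limit, Adh7 (0.63), Cyp2f2 (0.11) and Sbsn (0.30) in sub-clusters 1 and 2, Dmkn (0.21), Sbsn (0.25) and Sprr1a (0.23) without sub-clusters 4 and 7, and Sbsn (0.45) and Sprr1a (0.31) in cells with fewer than 3 suprabasal UMIs. The cause was not tested. Of 99 named or listed genes at 2-fold or more, 77 stayed so in the same direction under every alternative that gave a value.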

Other observations

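Genes of the early response to stress and dissociation were high in basal cells of every library. Fos, part of the AP-1 factor, was at 4069, 5327 and 4533 CPM, in the order of the report, against 1953, 2107 and 2829 CPM in the other kept barcodes. Jun, its partner, was at 4245, 4860 and 4675 CPM. Of 17 genes of this list none reached 2-fold at P10. Between the mutants Egr2, a zinc finger gene of that response, was 3.01 times higher at 3 months [2.44, 3.75], from 43.7 to 132 CPM.

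Of 11 water and ion handling genes 2 were at least 2-fold higher at 3 months than in the P10 mutant, and all 11 had a ratio above 1. Between the P10 libraries none of 12 reached 2-fold, while 9 had a ratio below 1, with a median log2 ratio of -0.45. Aqp4, a water channel, was at 131, 72.3 and 180 CPM, and Atp1b3, a subunit of the sodium pump, at 118, 85.8 and 203 CPM. Aqp5, a water channel of glands, was at 267.5, 253 and 288 CPM.

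Tfap2a and Tfap2c, the AP-2 factors of surface ectoderm and epidermis, were at 20.2, 19.1 and 15.6 CPM and at 14.7, 13.9 and 10.6 CPM, while Tfap2b had 0 UMIs in basal cells of all libraries.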
